A study of Homo sapiens with 15 samples.

Results

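WNT ligands, their receptors and their secreted antagonists were followed in IMR90, a fibroblast line from human fetal lung, across RAS-induced senescence and loss and return of METTL14. The set was chosen by gene symbol: every protein-coding gene of the WNT, FZD (Frizzled), SFRP and DKK families, with FRZB, WIF1, LRP5, LRP6, ROR1, ROR2, RYK, AXIN2, LEF1 and TCF7. This gave 47 of the 57736 genes in the deposited table, of which 19 are ligands, 10 Frizzled receptors, 5 co-receptors or other receptors, 10 secreted antagonists and 3 target genes or nuclear effectors. RNA was sequenced from the 3′ ends of transcripts with the QuantSeq kit in 15 libraries, in 5 groups of 3. Control cells carried the empty retrovirus and an siRNA with no target. All other groups expressed RAS from a retrovirus. This oncogene pushes fibroblasts into senescence, in which division stops for good and secretion is strong. siControl RAS cells received the siRNA with no target. Knockdown RAS cells received an siRNA against METTL14 with a vector, and the add-back groups received that siRNA with a lentivirus encoding wild-type METTL14 or its R298P mutant. siRNA was transfected on day 4 after retroviral infection and again a day later together with the lentivirus, and cells were harvested 48 hours after that. METTL14 pairs with METTL3 in the enzyme that places N6-methyladenosine on RNA, and R298P is a cancer-associated substitution that lowers the activity of the pair. The genotype labels use the words knockout and knock-in, but the protocol describes siRNA and lentivirus. The labels do not say which RAS gene was used, whether a lentiviral vector was also given to siControl RAS cells, or whether replicate libraries are separate cultures. The p-values below therefore measure the spread between libraries, which may be technical.

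WNT proteins are lipid-modified secreted ligands that bind Frizzled receptors at the cell surface. With LRP5 or LRP6 as co-receptor they stabilise beta-catenin, which enters the nucleus and acts with LEF1 and TCF7 on target genes such as AXIN2, itself a brake on the pathway. Other ligands, WNT5A foremost, act largely without beta-catenin through ROR1, ROR2 and RYK and shape cell polarity, movement and calcium signals. Secreted antagonists work at either level: SFRP proteins, FRZB and WIF1 bind the ligands, whereas DKK1 and DKK2 bind LRP5 and LRP6, and DKK3 is a divergent member of that family. In lung fibroblasts WNT5A is a secreted mediator of wound repair and fibrosis, and SFRP1 and WNT16 have been described among the proteins that senescent cells secrete.

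The start regions of 4 members that changed strongly are printed here because they show what stands in front of the genes the results turn on. DKK1 had the largest fall with RAS and WNT5A was the most abundant of the rising members, LEF1 was the called nuclear effector, and ROR1 had the largest called rise with the knockdown. Each line gives the 250 bases before the start, 5′ to 3′ on the gene's strand, from RefSeq on GRCh38.p14; the deposited table, whose build is named as hg19, holds no coordinates. Capitals mark matches to the motifs searched on both strands, which were CTTTGA (the core that LEF1 and TCF proteins bind), TGANTCA (AP-1) and TATAAA (the TATA box).
DKK1: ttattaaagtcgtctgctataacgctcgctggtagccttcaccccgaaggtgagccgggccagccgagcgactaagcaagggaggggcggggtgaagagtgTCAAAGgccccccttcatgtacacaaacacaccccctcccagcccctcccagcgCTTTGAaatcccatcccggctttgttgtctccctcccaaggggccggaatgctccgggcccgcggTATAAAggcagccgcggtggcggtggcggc
WNT5A: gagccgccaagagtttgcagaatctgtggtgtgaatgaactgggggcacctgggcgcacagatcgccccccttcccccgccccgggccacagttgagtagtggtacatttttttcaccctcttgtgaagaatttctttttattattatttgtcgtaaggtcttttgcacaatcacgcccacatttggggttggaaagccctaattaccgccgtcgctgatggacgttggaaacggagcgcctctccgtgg
LEF1: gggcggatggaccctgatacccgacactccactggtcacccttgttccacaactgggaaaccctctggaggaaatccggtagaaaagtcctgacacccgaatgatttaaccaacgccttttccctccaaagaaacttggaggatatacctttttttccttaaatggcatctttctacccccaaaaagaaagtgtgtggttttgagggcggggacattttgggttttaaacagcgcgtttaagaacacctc
ROR1: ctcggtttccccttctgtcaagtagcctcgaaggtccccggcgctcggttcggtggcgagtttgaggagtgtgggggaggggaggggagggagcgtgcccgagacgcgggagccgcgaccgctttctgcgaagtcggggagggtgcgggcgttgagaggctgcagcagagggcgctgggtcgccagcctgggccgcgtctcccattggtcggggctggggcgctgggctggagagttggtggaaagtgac
DKK1 (chr10:52314031-52314280, plus strand) held CTTTGA in both orientations, on the opposite strand at 149 to 144 bases and on its own strand at 95 to 90 bases before the start, and TATAAA at 30 to 25 bases before it. The windows of WNT5A (chr3:55487307-55487556, minus strand, the first of its listed starts), LEF1 (chr4:108166302-108166551, minus strand) and ROR1 (chr1:63773767-63774016, plus strand) held none of these letters. Their GC content was 62.8% for DKK1, 52.8% for WNT5A, 47.6% for LEF1 and 69.2% for ROR1. Among the 33 members with a window, DKK1 was the one with CTTTGA, none had TGANTCA, and DKK1, FZD8, TCF7 and WNT5B had TATAAA. Of all 35116 windows in the table, 11.2% held CTTTGA, 6.57% TGANTCA and 10.7% TATAAA. A match is a description of the letters and not of a bound site.

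Total counts ran from 4917661 to 7763084 per library with a median of 5853195, and levels are given as CPM, counts scaled to the effective size of each library. Because a 3′ library gives about 1 tag per transcript, CPM does not grow with gene length, and levels of different genes are set side by side on this scale. METTL14 checked the labels: it lay between 19.1 and 26.2 CPM in control and siControl RAS libraries, at 9.35, 4.94 and 3.94 CPM in the knockdown (3.77-fold below siControl RAS, adjusted p = 5.49e-06), between 508 and 564 CPM with wild-type add-back and between 892 and 1038 CPM with R298P. The R298P libraries thus held more METTL14 tags than the wild-type libraries (adjusted p = 0.0322). Replicate 1 of the knockdown stood apart on the third principal component (5.52% of the variance), at 54.4 against -25.6 to 9.88 for the other libraries, and results that rest on it are also given without it. All 10 fibroblast markers were measured, with a summed level of 10600 to 10800 CPM in control, 22200 to 23200 in siControl RAS, 18300 to 19100 in knockdown, 20600 to 21900 in wild-type and 20000 to 21200 in R298P libraries. The summed epithelial list was at 138 to 151, 52.6 to 70.2, 84.7 to 95.9, 79.0 to 86.8 and 70.9 to 81.9 CPM in the same order, with CDH1, KRT5 and KRT14 at 0 in every library. KRT8, KRT18, KRT19 and CLDN7 reached 1.71 CPM in every library, and EPCAM and CLDN4 in some. ELF3 went against the sum, with 2 counts over the control group and 94 over the siControl RAS group. The endothelial list lay at 14.4 to 24.0 CPM in control and 31.7 to 46.8 CPM in the RAS groups, with CDH5 and ERG at 0, and the leukocyte list at 2.96 to 7.97 CPM in control and 6.02 to 23.7 CPM in the RAS groups, with CD3E, MS4A1 and LYZ at 0. From these lists, TEK and CD68 reached 1.71 CPM in every library. ROBO4 did so in every RAS library and in 1 control library. The part of these lists in the results below was not tested, and in bulk RNA fewer cells of a type and less RNA per cell cannot be told apart.

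Of the 47 members, 29 had enough counts to be tested, 12 had 0 counts in all 15 libraries and 6 had counts but never more than 10 in a library. The 12 at 0 were WNT1, WNT3A, WNT6, WNT7A, WNT8A, WNT8B, WNT9B, WNT10A, DKK4, SFRP2, SFRP4 and SFRP5, and 3 counts over all libraries would stand for 0.034 CPM. The 6 with few counts were WNT4 (15 counts in all), WNT10B (20), WNT11 (20), FZD3 (34), FZD10 (6, all in 1 siControl RAS library) and WIF1 (2). A small part of the family thus carried nearly all the signal. In control cells the ligand tags came mostly from WNT5A and WNT5B, the Frizzled tags from FZD6 and FZD7, and the antagonist tags from SFRP1 and DKK3. WNT2, WNT2B, ROR2, DKK2 and AXIN2 passed the filter on low counts without any control library, since none of those reached its cutoff of 1.71 CPM. WNT2, ROR2 and DKK2 were tested only because they are high in RAS cells, so no p is given for them against control, and the counts of tested members that follow are descriptions. The quasi-likelihood test of edgeR was run two-sided on 13516 genes, and a gene counts as called where its p, adjusted by Benjamini-Hochberg over all of them, is under 0.05. By that rule 17 of the 29 tested members, WNT2, ROR2 and DKK2 among them, were called in at least 1 of 6 comparisons and 12 in none. The share of all genes called in at least 1 comparison was not computed. In siControl RAS against control alone it was 45.9%, so the 17 are not a result about these members.

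The first comparison, siControl RAS against control, asks what oncogenic RAS did to these genes. WNT5A, already the most abundant ligand in control, rose 5.50-fold, whereas SFRP1, the dominant antagonist, fell 2.92-fold and DKK1 fell 26.2-fold. WNT2, ROR2 and DKK2 were near or at 0 in control and detected in every RAS library of this comparison, DKK3 rose, and WNT5B and FZD7 fell. In all, 10 tested members were called higher, WNT2, ROR2 and DKK2 among them, and 4 lower, 48.3% of the 29, where 45.9% of all genes tested were called (24.0% higher and 21.9% lower). The share among these members was thus near that of all genes. Their median log2 difference was 0.00, as was that of all genes. By role, 4 of 8 tested ligands were called higher and 1 lower, 1 of 8 Frizzled receptors higher and 1 lower, 2 of 5 co-receptors higher, 2 of 5 antagonists higher and 2 lower, and 1 of 3 effectors higher.

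Among the ligands, WNT5A (ENSG00000114251) had 266, 276 and 243 CPM in the control libraries and 1499.9, 1455 and 1359 CPM in the siControl RAS libraries. All RAS libraries lay far above all control libraries, with a log2 difference of 2.46 (SE 0.07, adjusted p = 1.1e-25). WNT5B (ENSG00000111186), its close paralogue, went the other way, from 146, 146 and 163 CPM to 69.9, 78.5 and 76.5 CPM (log2 -1.02, SE 0.10, adjusted p = 2.01e-10), again without overlap. WNT5A therefore exceeded WNT5B 1.73-fold ± 0.216 (SD, n = 3) in control and 19.3-fold ± 1.95 (SD, n = 3) in siControl RAS libraries. WNT2 (ENSG00000105989), a ligand with a role in lung development, had 0 counts in the 3 control libraries and 8.99, 4.31 and 7.31 CPM in the siControl RAS libraries (130 counts in all). Against the level that 3 counts over the control group would give, 0.162 CPM, it was at least 43.8-fold higher. WNT7B, better known from lung epithelium, rose from 6.25, 9.72 and 11.3 CPM to 21.4, 29.8 and 30.1 CPM, a log2 difference of 1.57 (SE 0.22, adjusted p = 3.8e-07). WNT16, the ligand linked to senescence, moved least of those called, from 61.4, 59.6 and 65.0 CPM to 84.5, 77.2 and 72.2 CPM (log2 0.33, SE 0.11, adjusted p = 0.015). Its libraries did not overlap, but the call was lost without control replicate 2 or siControl RAS replicate 1. WNT2B, WNT3 and WNT9A stayed under 4 CPM in every siControl RAS and control library and were not called.

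**Figure D1:**
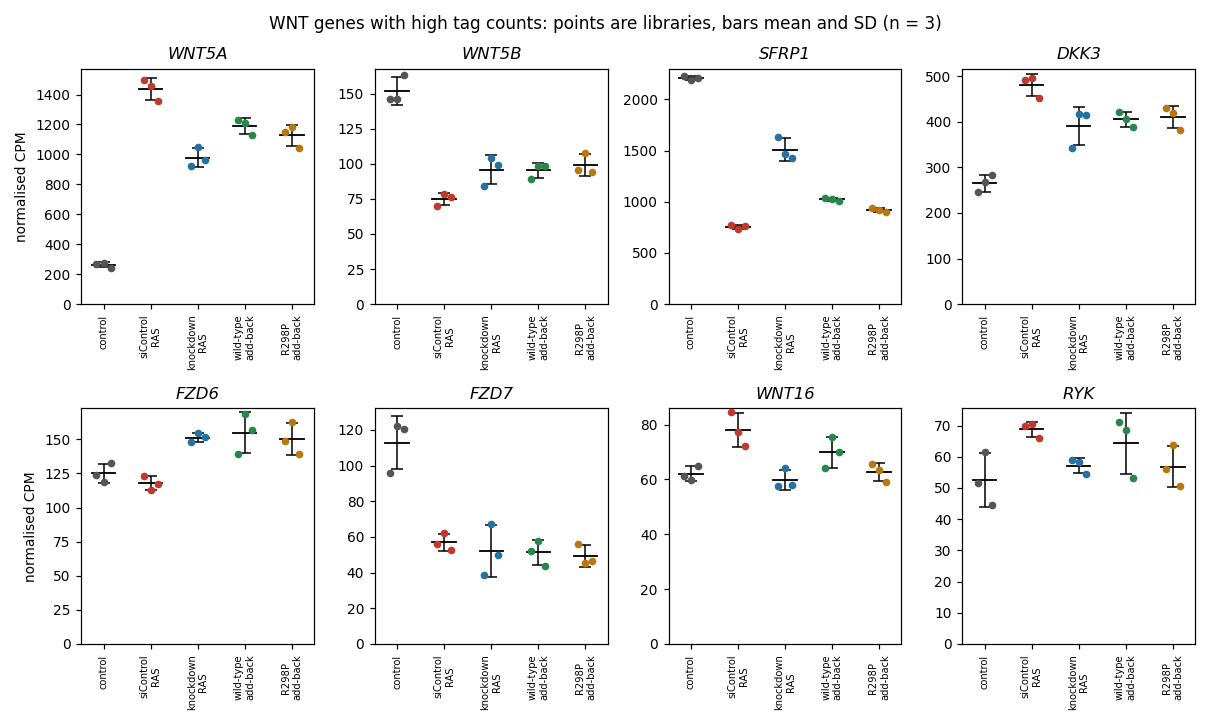
Level in CPM (vertical axes, linear) of 8 more abundant members by group; points are libraries, and the bar with its error is the mean ± SD of 3. WNT5A is lowest and SFRP1 highest in control, and the knockdown libraries of both lie between those of control and siControl RAS.

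Of the receptors, FZD7 (ENSG00000155760), often found in stem and mesenchymal cells, fell from 95.6, 122 and 120.4 CPM in control to 56.3, 62.0 and 52.6 CPM in siControl RAS libraries (log2 -0.98, SE 0.15, adjusted p = 3.75e-06). FZD8 rose from 19.2, 27.0 and 17.0 CPM to 33.0, 31.7 and 30.7 CPM (log2 0.59, SE 0.19, adjusted p = 0.011), a call that was lost without control replicate 3. FZD6, a receptor of the planar polarity branch and the most abundant Frizzled, was not called, with 125 ± 7.09 CPM before and 118 ± 5.24 CPM after RAS (SD, n = 3). Its share of the Frizzled tags was 41.5% in control and 50.1% in siControl RAS libraries, while that of FZD7 was 37.2% and 24.2%. FZD2 narrowly missed the threshold, with 20.8, 21.1 and 31.4 CPM in the control and 8.17, 10.1 and 23.7 CPM in the siControl RAS group (log2 -0.81, adjusted p = 0.0548). Its siControl RAS replicate 3 lay inside the control range. It was called lower in 6 of 14 alternatives, which were DESeq2, limma-voom, upper-quartile factors, no filter, the replicate block, and the fit without that library. FZD1, FZD4, FZD5 and FZD9 lay under 10 CPM and were not called.

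ROR2, a receptor for WNT5A, had 2 counts over the control group and 43 over the siControl RAS group, where the libraries stood at 1.5, 1.5 and 4.28 CPM. The ratio of normalised counts was 21.7, with an exact 95% interval of 5.66 to 185 that covers counting error only. ROR1, its paralogue, had 9.85, 4.78 and 9.98 CPM in the control group and 7.49, 5.25 and 7.66 CPM in the siControl RAS group and was not called (adjusted p = 0.486). RYK, a WNT receptor with an inactive kinase domain, rose from 51.7, 61.6 and 44.4 CPM to 69.9, 70.6 and 66.1 CPM (log2 0.39, SE 0.13, adjusted p = 0.0149). That call was lost without control replicate 3. LRP5 and LRP6, which pair with Frizzled in the beta-catenin branch, were not called, at 5.70 ± 0.857 and 6.35 ± 2.24 CPM for LRP5 and 32.5 ± 3.07 and 33.8 ± 4.41 CPM for LRP6 (SD, n = 3).

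The antagonists split. SFRP1 (ENSG00000104332), which binds WNT ligands outside the cell, had 2225, 2187 and 2209 CPM in the control libraries and 773, 734 and 759 CPM in siControl RAS libraries (log2 -1.55, SE 0.06, adjusted p = 3.56e-22). DKK1 (ENSG00000107984), an inhibitor of LRP5 and LRP6, had 24.8, 32.6 and 40.1 CPM against 0.817, 1.69 and 1.25 CPM (log2 -4.71, SE 0.42, adjusted p = 1.49e-11). Both lay below every control library in every RAS library of this comparison. DKK3 (ENSG00000050165) rose from 246, 267 and 284 CPM to 491, 497 and 453 CPM (log2 0.86, SE 0.08, adjusted p = 1.57e-11). DKK2 had 0.469, 0.494 and 0.333 CPM, 8 counts in all, in control and 2.04, 5.06 and 5.17 CPM in the siControl RAS libraries, without overlap. Its fitted log2 difference of 3.16 (SE 0.54) rests on those 8 counts, and DKK2 was a rare transcript in both groups. FRZB, an SFRP relative, was not called, at 1.59 ± 0.925 and 1.47 ± 1.44 CPM (SD, n = 3).

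Sums over each role show the same in levels. The 10 antagonists summed to 2507 ± 24.4 CPM in the control and 1243 ± 25.7 CPM in the siControl RAS group, and the 19 ligands to 490.0 ± 6.74 and 1629 ± 74.2 CPM (SD, n = 3). Antagonist tags thus outnumbered ligand tags 5.12-fold in control and were 0.763 of them in siControl RAS libraries. WNT5A made up 53.3% of ligand tags in control and 88.2% in siControl RAS libraries, and SFRP1 made up 88.0% and 60.8% of antagonist tags. SFRP1 per WNT5A was 7.93 to 9.10 in the control libraries and 0.504 to 0.559 in the siControl RAS libraries. These ratios are of transcript tags and are given with no test.

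**Figure D2:**
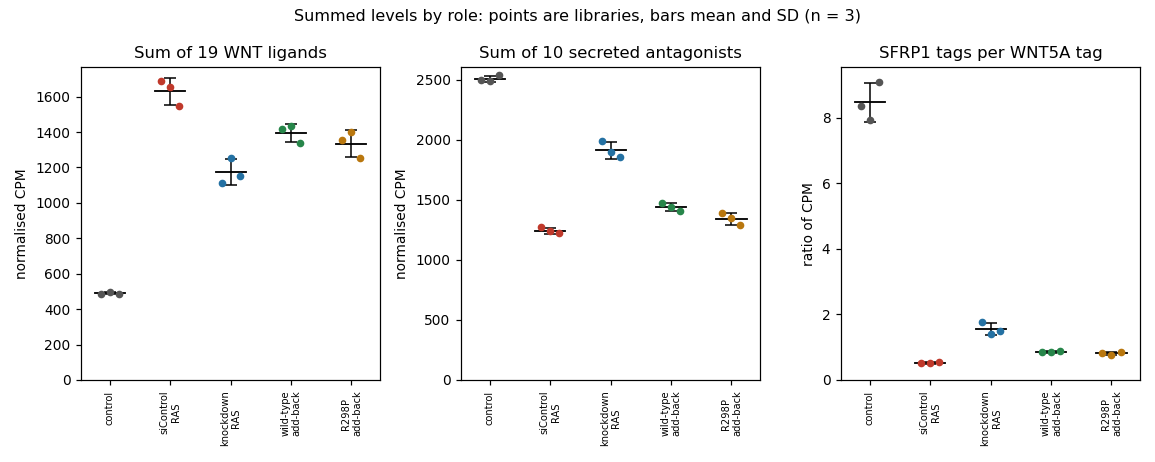
Summed CPM of the 19 ligands, summed CPM of the 10 secreted antagonists, and the ratio of SFRP1 to WNT5A CPM, by group; points are libraries, with mean ± SD of 3. The ratio is 7.93 to 9.10 in control, 0.504 to 0.559 in siControl RAS, 1.40 to 1.77 in knockdown and 0.774 to 0.893 in the add-back libraries.

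LEF1 (ENSG00000138795), the nuclear partner of beta-catenin, rose from 3.44, 4.45 and 3.49 CPM in control to 12.9, 8.99 and 11.1 CPM in siControl RAS libraries (log2 1.53, SE 0.35, adjusted p = 4.46e-04). AXIN2, the common readout of beta-catenin activity, was barely detected, with 0.781, 1.32 and 0.832 CPM in the control group and 0, 0 and 3.21 CPM in the siControl RAS group. It was not called (adjusted p = 0.952), and the result rests on siControl RAS replicate 3: without it AXIN2 was called lower in RAS cells (adjusted p = 0.0172). TCF7 was level, at 10.2 ± 1.29 and 9.84 ± 0.486 CPM (SD, n = 3, log2 -0.05, adjusted p = 0.911). The 3′ end of TCF7 shares 210 bases with SKP1 on the opposite strand, and no source used here states whether the counting was stranded.

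The second comparison sets RAS cells with the METTL14 siRNA and a vector against siControl RAS cells. The labels do not say whether the latter also received a vector. Loss of METTL14, other effects of the siRNA and the vector therefore cannot be told apart here. SFRP1 doubled (2.00-fold) and WNT5A fell 1.47-fold, while ROR1 rose 2.68-fold. FZD6 and WNT5B rose and WNT16 and DKK3 fell by smaller amounts. Of the 29 tested members 4 were called higher and 3 lower, 24.1%, where 15.5% of all genes tested were called (7.47% higher and 8.06% lower). The median log2 difference of the 29 was -0.12, against 0.00 for all genes. This comparison shares its siControl RAS libraries with the first, so opposite signs in the 2 comparisons are not independent.

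SFRP1 had 1635, 1465 and 1429 CPM in the knockdown libraries against 734 to 773 CPM in siControl RAS libraries (log2 1.00, SE 0.06, adjusted p = 8.01e-16). All 3 libraries were above every siControl RAS library and below every control library. Without knockdown replicate 1, the highest, the log2 difference was 0.94. WNT5A had 926, 1047 and 961 CPM against 1359 to 1499.9 CPM (log2 -0.56, SE 0.06, adjusted p = 3.3e-08), again between siControl RAS and control libraries. SFRP1 per WNT5A was 1.40 to 1.77 in the knockdown, above the 0.504 to 0.559 of siControl RAS libraries and below the 7.93 to 9.10 of control libraries. DKK3 had 343, 417 and 415 CPM (log2 -0.29, SE 0.08, adjusted p = 0.0054), and its call rested on knockdown replicate 1, the lowest: without it the log2 difference was -0.21 with an adjusted p of 0.0673.

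ROR1 (ENSG00000185483), a receptor tyrosine kinase-like protein that binds WNT5A, had 21.5, 17.7 and 15.9 CPM in the knockdown against 5.25 to 7.66 CPM in siControl RAS libraries. Its log2 difference was 1.42 (SE 0.28, adjusted p = 3.19e-04), and the groups did not overlap. It also stood above the 4.78 to 9.98 CPM of control libraries, so ROR1 stood above both groups that had not received the METTL14 siRNA. FZD6 (ENSG00000164930) had 148, 155 and 152 CPM against 113 to 123 CPM (log2 0.36, SE 0.09, adjusted p = 0.00435), and it too was above every control library. WNT5B had 84.5, 104 and 99.0 CPM against 69.9 to 78.5 CPM (log2 0.36, SE 0.10, adjusted p = 0.0125), and WNT16 had 57.7, 64.0 and 57.8 CPM against 72.2 to 84.5 CPM (log2 -0.38, SE 0.11, adjusted p = 0.0165). Both moved without overlap of the libraries. The WNT5B call was lost when siControl RAS replicate 1 or knockdown replicate 2 was left out. The WNT16 call was lost without siControl RAS replicate 1 and without knockdown replicate 1 or 3.

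Several members had an estimated difference that was not called. DKK1 had 3.45, 2.62 and 1.97 CPM in the knockdown (log2 1.11, 95% interval 0.16 to 2.05 before adjustment, adjusted p = 0.109). DKK2 had 6.71, 9.72 and 6.40 CPM (log2 0.92, adjusted p = 0.127). LEF1 had 7.11, 7.25 and 5.25 CPM (log2 -0.75, adjusted p = 0.139). LRP5 (log2 0.80, adjusted p = 0.104) and RYK (log2 -0.27, adjusted p = 0.187) were not called either. WNT2B had 1.83, 3.40 and 1.64 CPM in the knockdown against 0 to 1.12 CPM. No p is given for WNT2B, since no siControl RAS library reached the filter's cutoff. The knockdown libraries of DKK1, DKK2, LEF1, LRP5, RYK and WNT2B did not overlap with the siControl RAS libraries. In all, 17 of the 29 tested members did not overlap, where 30.0% of all genes did not. WNT7B and FZD7 were near their siControl RAS level, at 29.3 ± 7.19 and 52.1 ± 14.4 CPM (SD, n = 3, adjusted p = 0.8 and 0.7). AXIN2, at 3.66, 2.62 and 0.985 CPM, was not called (adjusted p = 0.514). All 18 of its siControl RAS counts were in replicate 3, and without that library it was called higher. No p is given for that fit, because AXIN2 then passed the filter mainly through the knockdown libraries, where it is higher.

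**Figure D3:**
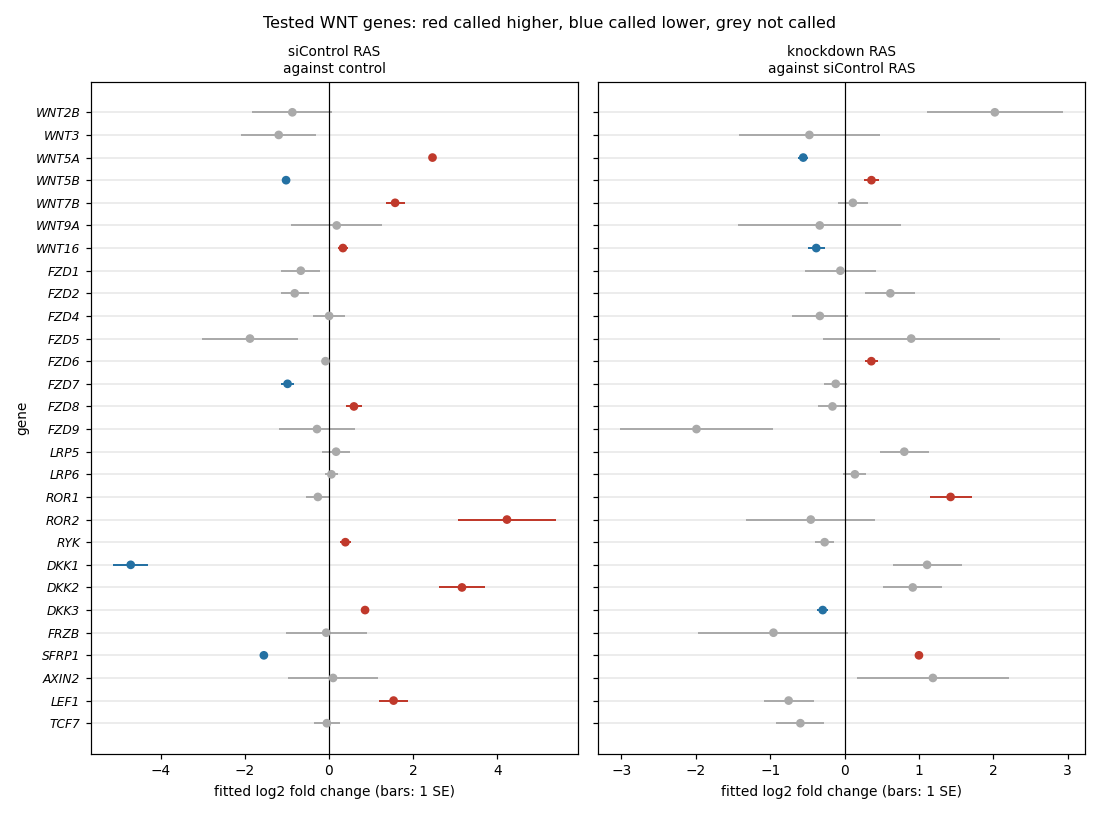
Log2 fold change (horizontal axis) of 28 tested members in siControl RAS against control and in knockdown against siControl RAS; points are estimates, bars ± 1 SE, red called higher, blue called lower, grey not called. WNT2 is left out because it had 0 control counts. The fitted value of ROR2 in the first comparison rests on 2 control counts and that of DKK2 on 8. DKK1 is lowest in the first comparison, and ROR1 and SFRP1 are the called members with the largest rise in the second, which shares the siControl RAS libraries.

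**Figure D4:**
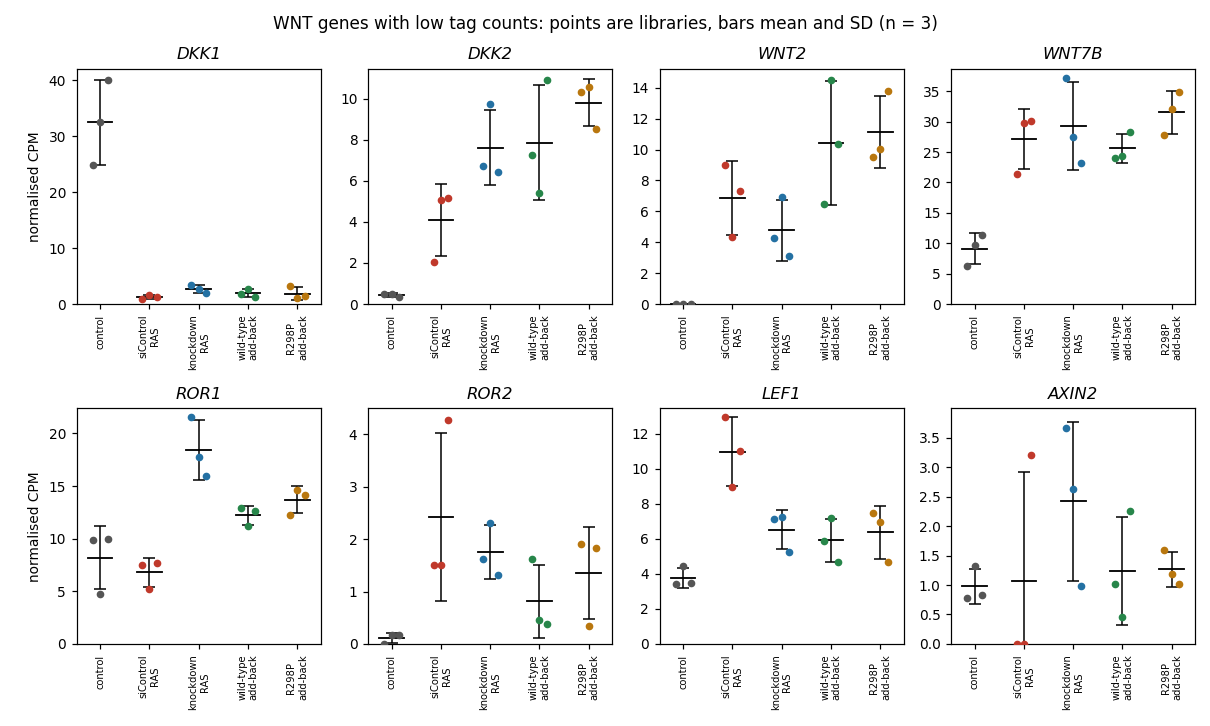
Level in CPM (vertical axes, linear) of 8 less abundant members by group; points are libraries, with mean ± SD of 3. DKK1 is at 24.8 to 40.1 CPM in control and at most 3.45 CPM in every RAS library, and ROR1 is highest in the knockdown.

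The knockdown was also set against control, whose libraries it shares with the first comparison, to place these cells beside cells without RAS. WNT5A, WNT2, WNT7B, DKK2 and DKK3 were higher than in control and DKK1, FZD7, SFRP1 and WNT5B lower. Of the tested members, 9 of 29 were called higher, again with WNT2, ROR2 and DKK2 among them, and 4 lower, 44.8%, where 36.0% of all genes tested were called (19.2% higher and 16.7% lower). WNT5A was 3.74-fold above control (log2 1.90, SE 0.07, adjusted p = 2.27e-22) and SFRP1 1.46-fold below (log2 -0.55, SE 0.06, adjusted p = 4.51e-10). DKK1 was 12.1-fold below control (adjusted p = 1.48e-09) and FZD7 2.15-fold below (adjusted p = 9.63e-07). WNT2, with 4.27, 6.94 and 3.12 CPM, was at least 29.9-fold above the floor of the control group. ROR2, with 1.63, 2.31 and 1.31 CPM, had a ratio to control of 16.4 (exact 95% interval 4.17 to 141). WNT7B, DKK2 and DKK3 were also called higher, by 1.68, 4.08 and 0.56 on the log2 scale, and WNT5B lower, by -0.66. LRP5 was called higher here, with 15.2, 9.11 and 9.36 CPM against 5.0, 5.44 and 6.65 CPM (log2 0.97, adjusted p = 0.0216), and the call was lost without control replicate 1 or 2 or knockdown replicate 1. ROR1 (log2 1.16, adjusted p = 0.00106) and FZD6 (log2 0.28, adjusted p = 0.015) were called higher as well, FZD6 not without control replicate 2. WNT16 (log2 -0.05), RYK (log2 0.12) and LEF1 (log2 0.78) were not called against control (adjusted p = 0.774, 0.524 and 0.0864).

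The add-back comparisons ask what METTL14 returned to the knockdown cells. SFRP1 fell with either protein, 1.48-fold with wild type and 1.64-fold with R298P. WNT5A was 1.22-fold higher with wild type, which was called, and 1.15-fold higher with R298P, which was not. With wild-type METTL14, 1 of the 29 tested members was called higher and 1 lower, 6.9%, where 0.621% of all genes were called (0.326% higher and 0.296% lower). With R298P, 1 was called lower, 3.45%, where 1.09% of all genes were called and 0.555% called lower. Both comparisons share the knockdown libraries, so their values are set side by side and not counted as agreement.

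SFRP1 had 1039, 1022 and 1006 CPM with wild-type METTL14 and 942, 915 and 896 CPM with R298P, against 1429 to 1635 CPM in the knockdown. The log2 differences were -0.56 (SE 0.06, adjusted p = 2.32e-08) and -0.72 (SE 0.06, adjusted p = 7.16e-11). All 6 add-back libraries lay below every knockdown library and above every siControl RAS library. SFRP1 was called in each of the 14 alternatives of both comparisons. WNT5A had 1232, 1212 and 1127 CPM with wild type and 1150.4, 1183 and 1046 CPM with R298P, against 926 to 1047 CPM in the knockdown. The log2 differences were 0.28 (SE 0.06, adjusted p = 0.0203) and 0.20 (SE 0.06, adjusted p = 0.146). The R298P range touched that of the knockdown and the wild-type range did not. The wild-type call was lost when only the compared groups were fitted and without knockdown replicate 1 or 3 or wild-type replicate 1 or 2, with adjusted p up to 0.173. SFRP1 per WNT5A was 0.843 to 0.893 with wild type and 0.774 to 0.857 with R298P.

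For other members, the add-back values were as follows. ROR1 had 12.9, 11.2 and 12.6 CPM with wild type and 12.2, 14.7 and 14.2 CPM with R298P, each below every knockdown library. The log2 differences from the knockdown were -0.59 (95% interval -1.14 to -0.03 before adjustment, adjusted p = 0.615) and -0.42 (interval -0.97 to 0.12, adjusted p = 0.729), so neither was called. FZD6 was at 155 ± 14.8 and 150.4 ± 11.7 CPM, WNT5B at 95.5 ± 5.37 and 99.3 ± 7.64 CPM, and DKK3 at 405 ± 17.2 and 411 ± 24.7 CPM (SD, n = 3), all within 0.07 of the knockdown on the log2 scale. WNT16 had 64.3, 75.6 and 70.1 CPM with wild type (log2 0.23, adjusted p = 0.683) and 65.5, 63.5 and 59.0 CPM with R298P (log2 0.07, adjusted p = 0.939). WNT2 had 6.47, 14.5 and 10.3 CPM and 9.54, 10.1 and 13.8 CPM, with log2 differences from the knockdown of 1.13 and 1.21 that were not called (adjusted p = 0.349 and 0.186). DKK1, DKK2 and LEF1 were not called in either comparison.

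**Figure D5:**
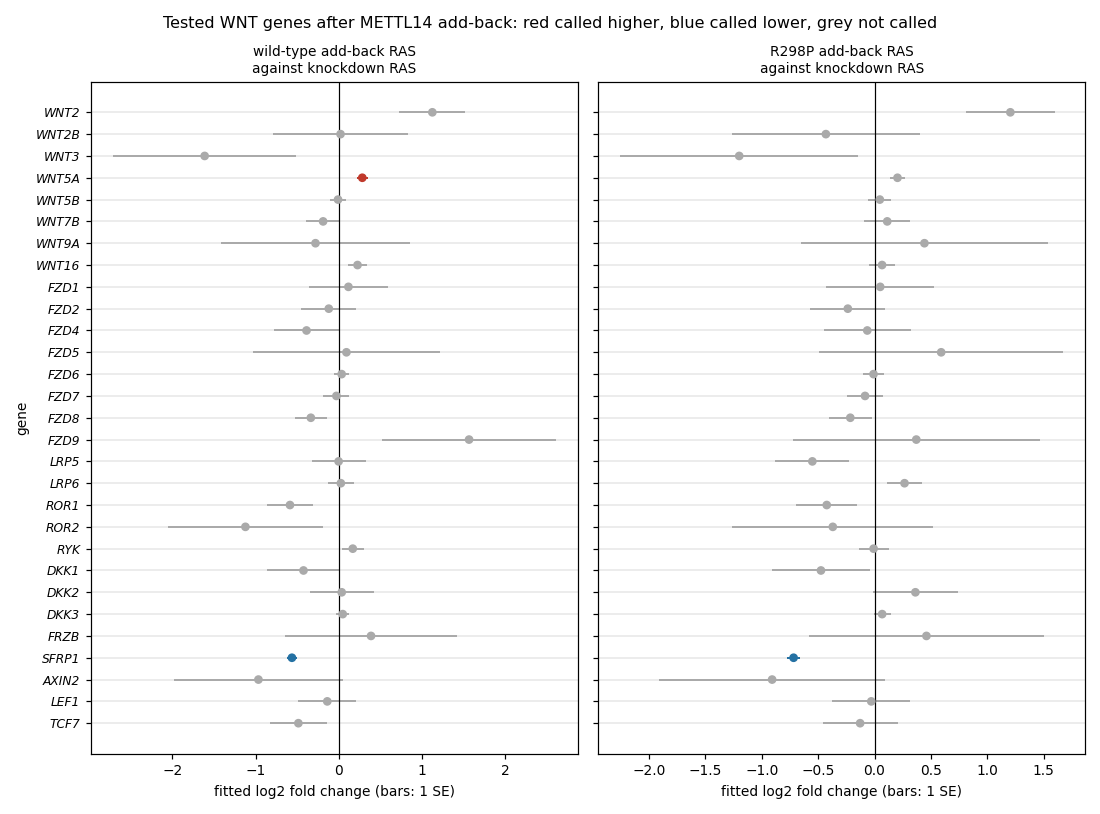
Log2 fold change (horizontal axis) of the 29 tested members in each add-back against the knockdown; points are estimates, bars ± 1 SE, red called higher, blue called lower, grey not called. SFRP1 is called lower in both and WNT5A higher with wild type, and both comparisons share the knockdown libraries.

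The direct comparison of the add-back groups asks whether the outcome differed between wild-type and R298P METTL14. These groups also differed in the amount of METTL14 tags, which was 1.73-fold lower with wild type (edgeR, adjusted p = 0.0322). In both groups METTL14 stood far above its siControl RAS level. The substitution and the amount of METTL14 therefore cannot be told apart here. By edgeR 0 of the 29 tested members were called, where 0.0222% of all genes were, METTL14 itself among them. DESeq2 and limma-voom also called 0. At an unadjusted p under 0.05 edgeR gave 1 member, SFRP1, and 665 of all 13516 genes tested. SFRP1 was higher with wild type by 0.16 on the log2 scale (95% interval 0.04 to 0.27 before adjustment, adjusted p = 0.897), and its wild-type libraries did not overlap with its R298P libraries. For WNT5A the difference was 0.08 (interval -0.05 to 0.21), for ROR1 -0.16 (interval -0.72 to 0.40) and for WNT2 -0.08 (interval -0.85 to 0.69). The interval of WNT5A leaves room for a small difference and those of ROR1 and WNT2 for a large one. LRP6, named after its values were seen, was not called (log2 -0.24, interval -0.55 to 0.07). It had 38.2, 37.3 and 38.1 CPM with wild type and 43.6, 44.5 and 46.2 CPM with R298P. SFRP1 and LRP6 were the 2 of 29 tested members whose libraries did not overlap here. The share of all genes without overlap is not given for this comparison, so this is not a result about them.

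The rest of the pathway was read from 5 lists of 81 genes, of which 66 were tested. For siControl RAS against control, 22 of the 66 were called higher and 11 lower, 50.0% where the figure for all genes was 45.9%, with a median log2 difference of 0.19. Of 7 tested genes for WNT secretion and receptor turnover, 2 rose: WLS, the carrier of WNT proteins to the surface, from 123 to 254 CPM (log2 1.05, adjusted p = 5.3e-13), and KREMEN1, a partner of DKK proteins, from 6.59 to 27.9 CPM (log2 2.08, adjusted p = 3.29e-07). Of 11 tested beta-catenin target genes, 5 rose and 2 fell. CCN4, a secreted matricellular protein, went from 1.80 to 82.8 CPM (log2 5.52, adjusted p = 1.65e-23) and BMP4, a growth factor, from 6.65 to 174 CPM (log2 4.70, adjusted p = 1.14e-25). NKD2, an inhibitor of Dishevelled, also passed (fitted log2 2.73), but no control library reached the filter's cutoff, and the call was lost without control replicate 2 or 3 or siControl RAS replicate 2 or 3. These genes answer to other signals too, and CCND1, a cell cycle gene on the same list, fell from 2380 to 1710 CPM.

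Of 16 tested genes of the destruction complex and Dishevelled, 6 rose and 3 fell, led by the tankyrases TNKS2 (log2 0.64) and TNKS (log2 0.61), which destabilise AXIN, and the kinase CSNK1E (log2 0.62). Of 14 tested nuclear partners, 3 rose, the co-repressor TLE4 (log2 1.10) and the beta-catenin partners TCF7L2 (log2 0.63) and TCF7L1 (log2 0.58), and 2 fell. Of 18 tested genes of the planar polarity and calcium branch, 6 rose and 4 fell, among them CELSR3, a polarity cadherin (fitted log2 3.91, at 0.276 and 4.40 CPM, the first under the cutoff in every control library), DAAM1, a formin downstream of Dishevelled (log2 1.68), and CAMK2D, a calcium-dependent kinase (log2 -1.62). CTNNB1, which encodes beta-catenin, was at 141 and 149 CPM and was not called (adjusted p = 0.55), nor was GSK3B, the kinase that marks it for destruction, at 93.2 and 107 CPM (adjusted p = 0.0978).

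For the knockdown against siControl RAS cells, 6 of the 66 were called higher and 10 lower, 24.2% where the figure for all genes was 15.5%, with a median log2 difference of -0.05. KREMEN1 fell from 27.9 to 9.11 CPM (log2 -1.62, adjusted p = 6.79e-05) and WLS from 254 to 166 CPM (log2 -0.61, adjusted p = 5.37e-07). CAMK2D rose from 54.3 to 121 CPM (log2 1.16, adjusted p = 8.36e-11), and PRICKLE2, a polarity gene, fell by 0.77 on the log2 scale. NFATC2, a calcium-responsive factor at 5.26 and 1.84 CPM, was called lower (adjusted p = 0.0434), and also in 5 of the 14 alternatives. The fit without knockdown replicate 1 was not among those 5. Of the target genes, CCN4 rose further from 82.8 to 136 CPM (log2 0.72), while TBX3, a transcription factor, fell from 780 to 451 CPM (log2 -0.79) and TNFRSF19, a receptor, from 43.4 to 24.9 CPM (log2 -0.79), the last not without knockdown replicate 1. APC, the scaffold of the destruction complex (log2 0.54), and DVL2, a Dishevelled protein (log2 0.61), were called higher, and CSNK1E (log2 -0.31) and the co-repressors TLE3 (log2 -0.89) and TLE1 (log2 -0.46) lower. The DVL2 call was lost in 5, the TLE1 call in 7 and the TLE3 call in 1 of 14 alternatives. For DVL2 and TLE1 the fit without knockdown replicate 1 was among these. CTNNB1, at 131 CPM, was not called (adjusted p = 0.286), and GSK3B, at 120 CPM, was not called either (adjusted p = 0.282), though it was higher than in control (log2 0.37, adjusted p = 0.00309). For the knockdown against control, 23 of the 66 were called higher and 14 lower, 56.1% where the figure for all genes was 36.0%.

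With wild-type METTL14, 0 of the 66 were called against the knockdown by edgeR, where 0.621% of all genes were. DESeq2 called 1 and limma-voom 0. In edgeR 9 of the 66 had an unadjusted p under 0.05, as did 1021 of all 13516 genes tested. With R298P, 1 of the 66 was called, 1.52% where the figure for all genes was 1.09%. It was BMP4, higher with 268 CPM against 193 CPM (log2 0.47, adjusted p = 0.00335), a call lost without knockdown replicate 2 or R298P replicate 3. DESeq2 and limma-voom each called 2. Between the add-back groups 0 of the 66 were called by edgeR, DESeq2 and limma-voom, where edgeR called 0.0222% of all genes. In edgeR 6 of the 66 had an unadjusted p under 0.05, as did 665 of all 13516 genes tested.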

How the data were processed

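Transcript levels were measured in 15 libraries of 5 groups, 3 each. The authors deposited counts per Ensembl gene as whole numbers with no normalisation. The submitters' processing notes name Bowtie2, RSEM 1.2.12 and hg19 without their roles, so the counts may have been rounded before deposit. Annotation and strand setting: not stated in any source used here. Symbols were matched by Ensembl ID for 52301 of 57736 rows (90.6%).

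One edgeR 4.0.16 model (R 4.3.3) held all libraries, with TMM factors and the default expression filter (13516 genes, 99.8% of counts). The robust quasi-likelihood test was two-sided, with 10 residual degrees of freedom, and Benjamini-Hochberg adjustment ran over all genes tested. The fit was tested on simulated data. Depth was 4917661 to 7763084 counts, and the biological coefficient of variation was 16.7%. An exact permutation test of 3 against 3 cannot go below p = 0.1 and was not used. Where a group had 0 counts, the fold given is a bound at 3 counts over that group. No library was a copy of another (chi-square per degree of freedom within groups 3.53 to 8.63). Deviations of same-numbered libraries correlated at -0.0541 to 0.0681 over 30 pairs, so the numbers were treated as unpaired.

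Named were the members called in any comparison, up to 3 called genes per pathway list with the largest change, CTNNB1, GSK3B and METTL14. CCND1 and LRP6 were named after their values were seen. PECAM1 matched no row. The members, lists and tests were chosen with earlier results of these data known. Alternatives were RLE and upper-quartile factors, DESeq2 1.42.0, limma-voom (limma 3.58.1), no filter, a stricter filter (1 CPM in 3 libraries), only the compared groups, a replicate block, and each replicate left out.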

Additional observations from a re-analysis of the deposited data

How the results depend on the processing

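Of 174 results of tested members (29 members in 6 comparisons), 37 were called. Of these, 27 were called in every alternative that gave a value, 10 were lost in at least 1, and 9 uncalled results became called in at least 1. The 37 include WNT2, ROR2 and DKK2 against control. Those genes were tested only because they are high in RAS cells, so their calls in the alternatives are no sign of a stable result. No called result changed direction. With only the compared groups fitted, 1 member was called for wild-type METTL14 against the knockdown instead of 2, and 5 genes of all tested were called between the add-back groups instead of 3. That count was 9 in DESeq2, 5 in limma-voom, 14 with no filter, and 1 to 2 when single replicates were left out. Leaving out single replicates gave 1 to 2 members and 55 to 70 of all genes for wild type against the knockdown (84 with all libraries), and 90 to 140 of all genes for R298P (148). With the replicate block, which pairs libraries that share only a number, 2 members instead of 1 were called for R298P, WNT5A being the added one (adjusted p = 0.049); by number, 8 of 15 libraries correlated best with their own. Members called for the knockdown against siControl RAS ranged from 5 to 9 over left-out replicates, with 5 without knockdown replicate 1 (4 higher and 1 lower) and also without siControl RAS replicate 1 (3 higher and 2 lower). At this depth a member under about 1 CPM cannot be followed, and 3 libraries a group limit the smaller differences. ROR2, NKD2 and AXIN2 had no value in 1 alternative each.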
